A study of Mus musculus with 4 samples.

Results

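The 10 genes described here are the core surfactant genes of alveolar type 2 cells. They were selected by gene symbol (Sftpa1, Sftpb, Sftpc, Sftpd, Abca3, Lamp3, Napsa, Slc34a2, Etv5 and Nkx2-1), and all 10 were found, once each, among the 56748 genes of the count table. The list was drawn up with earlier results of these data known. All 10 had enough reads to be tested, among 15320 tested genes. In mouse lungs carrying 4T1 breast cancer metastases, 8 of the 10 were higher in both ADC/cmLumiOpto samples than in both saline samples, with Sftpc at 3873 ± 632 CPM (SD, n = 2) against 595 ± 596 CPM (SD, n = 2). Of all tested genes, 28.1% were higher in this way, with no overlap between the groups. The lipid transporter gene Abca3 and the transcription factor gene Etv5 were lower in both treated samples than in both saline samples (log2 fold changes -0.23 and -0.53). Of all tested genes, 28.8% were lower without overlap. None of the 10 had an adjusted p under 0.05 in edgeR's quasi-likelihood test, and neither did any other of the 15320 tested genes. For the 8 genes that were higher, the 2 saline samples lay from 1.71-fold (Napsa) to 5.84-fold (Sftpc) apart.

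Pulmonary surfactant is a film of phospholipid and protein that lowers surface tension in the alveolus. Alveolar type 2 cells, cuboidal cells in the corners of the alveolus, make it, store it in lamellar bodies and secrete it. The hydrophobic proteins SP-B and SP-C (Sftpb and Sftpc) organize the lipid film, whereas the collectins SP-A and SP-D (Sftpa1 and Sftpd) bind microbes and regulate surfactant turnover. ABCA3 pumps phospholipid into the lamellar body, LAMP3 is a glycoprotein of its membrane, napsin A (Napsa) trims the SP-B and SP-C precursors, and the cotransporter NaPi-2b (Slc34a2) takes up phosphate at the apical surface. The homeodomain factor NKX2-1 and the ETS factor ETV5 maintain the type 2 cell program. Several of these genes are not limited to this cell type. Lamp3 is also a marker of mature dendritic cells, Slc34a2 is made by mammary epithelium, and ETS factors of the Etv5 family act downstream of growth factor receptors in many epithelia and tumors.

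The samples were bulk RNA from lungs of female BALB/cJ mice, a strain with an intact immune system, injected through the tail vein at 7 weeks of age with 4T1-FLuc, a luciferase-expressing mouse triple-negative breast cancer (TNBC) line. The control group received saline, which the sample labels also call PBS. The ADC/cmLumiOpto group received CD276-DM1, an antibody-drug conjugate (ADC) of an anti-CD276 antibody with the microtubule inhibitor mertansine, together with cmLumiOpto, an adeno-associated virus gene therapy whose light-gated channel depolarizes mitochondria when a luminescent substrate is given. The labels name this treatment cmLumi-Olap & CD276-DM1 at 16 mg/kg and give 3 weeks of treatment, and the study's methods name a lower dose of ADC and no Olap. The vector is carried by antibody-tagged exosomes and its genes are driven by a cfos promoter meant to favor cancer cells. Each group had 2 samples, which the methods call biological without naming the mice, and the methods give more samples per group than the 2 analysed here. All 4 samples carried the tumor cells, so none represents a lung free of tumor. The labels describe harvested tumor cells of the 4T1 line, whereas the methods describe dissociated lung tissue, and both carcinoma and lung markers were present. Krt8, an epithelial keratin, was between 1117 and 1543 CPM, the surfactant genes were detected in all 4 samples, and of the receptors that TNBC lacks Pgr had at most 4 counts while Erbb2 was between 51.4 and 87.5 CPM. Each library held 15263375 to 19675436 counts, and a floor of 3 counts was 0.152 to 0.197 CPM, covering counting error only. CPM are read counts scaled to library size after TMM normalization in edgeR, and TPM are transcript levels that are also divided by the gene length listed with the counts and were used to compare genes with one another. In bulk RNA, fewer cells of a type and less RNA per cell cannot be told apart.

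On the genome, Sftpa1 (chr14:40853739-40858409), Sftpd (chr14:40894171-40907106) and Sftpc (chr14:70758389-70761521) share chromosome 14. Lamp3 (chr16:19472128-19525125) and Etv5 (chr16:22200059-22258469) share chromosome 16. The other genes are Sftpb (chr6:72281594-72291354), Abca3 (chr17:24570924-24629175), Napsa (chr7:44221804-44236286), Slc34a2 (chr5:53195423-53229006) and Nkx2-1 (chr12:56578743-56583693). These are whole-gene spans as listed with the counts, for which the submitters' processing notes name mm39, and 0 of the 10 had the start and end given by the GRCm38 annotation. Genes on the opposite strand overlapped Abca3, Napsa, Slc34a2 and Nkx2-1, but none of those had more than 11 counts in a sample.

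The 250 bases before the gene start were read from RefSeq (GRCm38.p6) for the 7 surfactant genes with an entry, which gave 8 windows because Etv5 has 2 starts. Sftpc, Sftpd and Napsa had no entry. An annotated exon covered 149 bases of an Etv5 window, 86 of the Slc34a2 window and 73 of the Abca3 window. Each window was searched on both strands for 4 short motifs of factors known in lung epithelium. The NKX2-1 motif CTCAAG was in 2 of the 8 windows, those of Sftpb and Sftpa1, and in 13.3% of all 32851 windows of the same length. The FOXA motif TGTTTAC was also in 2 windows, that of Lamp3 and the Etv5 window with 149 exonic bases, against 3.17% of all windows. The ETS motif CGGAAG and the C/EBP motif TTGCNNCAA were in 0 of the 8 windows, against 13.6% and 1.74%. No motif overlapped another. The windows of Sftpb (chr6:72304360-72304609, plus strand), Sftpa1 (chr14:41131538-41131781, plus strand) and Lamp3 (chr16:19706376-19706615, minus strand) are printed because these 3 genes were among the 8 that were higher after treatment and hold a motif. They run 5′ to 3′ on the strand of the gene, with the motifs in capitals, and the last 6 bases of the Sftpa1 window and the last 10 of the Lamp3 window were left out because an annotated exon begins there.
Sftpb: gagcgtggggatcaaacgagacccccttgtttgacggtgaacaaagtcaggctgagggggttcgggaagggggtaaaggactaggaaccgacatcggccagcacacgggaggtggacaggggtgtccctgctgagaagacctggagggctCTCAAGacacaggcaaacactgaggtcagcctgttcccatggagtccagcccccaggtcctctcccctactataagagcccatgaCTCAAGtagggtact
Sftpa1: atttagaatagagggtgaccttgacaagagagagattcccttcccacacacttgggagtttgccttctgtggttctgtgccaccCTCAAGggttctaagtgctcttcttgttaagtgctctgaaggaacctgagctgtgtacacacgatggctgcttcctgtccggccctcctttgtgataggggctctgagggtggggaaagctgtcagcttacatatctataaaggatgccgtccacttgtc
Lamp3: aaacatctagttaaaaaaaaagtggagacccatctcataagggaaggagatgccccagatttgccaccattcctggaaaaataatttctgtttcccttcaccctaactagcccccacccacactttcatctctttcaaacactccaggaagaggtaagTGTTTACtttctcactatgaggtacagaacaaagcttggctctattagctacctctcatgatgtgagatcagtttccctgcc
In Sftpb the motif occurred at 100 to 95 and at 15 to 10 bases before the start, and in Sftpa1 at 166 to 161 bases before it, on the strand of the gene in each case. A match describes only the letters of these windows.

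By level per length, Sftpc was by far the most abundant of the 10 genes. Its level was 3003 and 518 TPM in saline replicates 1 and 2, and 10541 and 9334 TPM in ADC/cmLumiOpto replicates 1 and 2. Among all genes it ranked 28 and 280 with saline and 6 and 7 with treatment. Its reads made up 0.101% of all counts in saline replicate 1 (95% exact binomial interval 0.0995 to 0.103), 0.0169% in saline replicate 2 (0.0163 to 0.0176), 0.427% in ADC/cmLumiOpto replicate 1 (0.424 to 0.430) and 0.357% in ADC/cmLumiOpto replicate 2 (0.354 to 0.360), intervals that cover counting error only. All 10 genes together took 0.180% and 0.0526% of the saline libraries, and 0.578% and 0.529% of the treated libraries.

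Below Sftpc, the order of levels in the treated samples was Sftpb at 601 ± 135 TPM, Sftpa1 at 391 ± 19.4, Sftpd at 216 ± 19.7, Slc34a2 at 96.7 ± 33.9, Napsa at 94.7 ± 18.1, Lamp3 at 42.9 ± 6.58, Etv5 at 39.1 ± 5.56, Abca3 at 33.4 ± 4.22 and Nkx2-1 at 18.6 ± 6.31 TPM (SD, n = 2). Slc34a2 and Napsa did not differ beyond their spread, nor did Lamp3 and Etv5 or Etv5 and Abca3. In the saline samples the means of Sftpb, at 195 ± 165 TPM (SD, n = 2), and Sftpa1, at 108 ± 89.4 TPM (SD, n = 2), did not differ beyond their spread, although Sftpb was above Sftpa1 in each sample. The 2 genes that were lower after treatment stood further up the order there, with Etv5 at 64.5 ± 5.91 TPM and Abca3 at 44.8 ± 4.12 TPM (SD, n = 2). Beside them were Sftpd at 47.0 ± 29.7, Napsa at 33.6 ± 12.3, Slc34a2 at 28.9 ± 25.1, Lamp3 at 9.47 ± 8.50 and Nkx2-1 at 4.79 ± 3.78 TPM. Within a sample, the TPM of Abca3 was 1.59% and 8.08% of that of Sftpc in saline replicates 1 and 2, but 0.289% and 0.390% after treatment. For Lamp3 the same ratio stayed between 0.410% and 0.668% in all 4 samples.

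**Figure D1:**
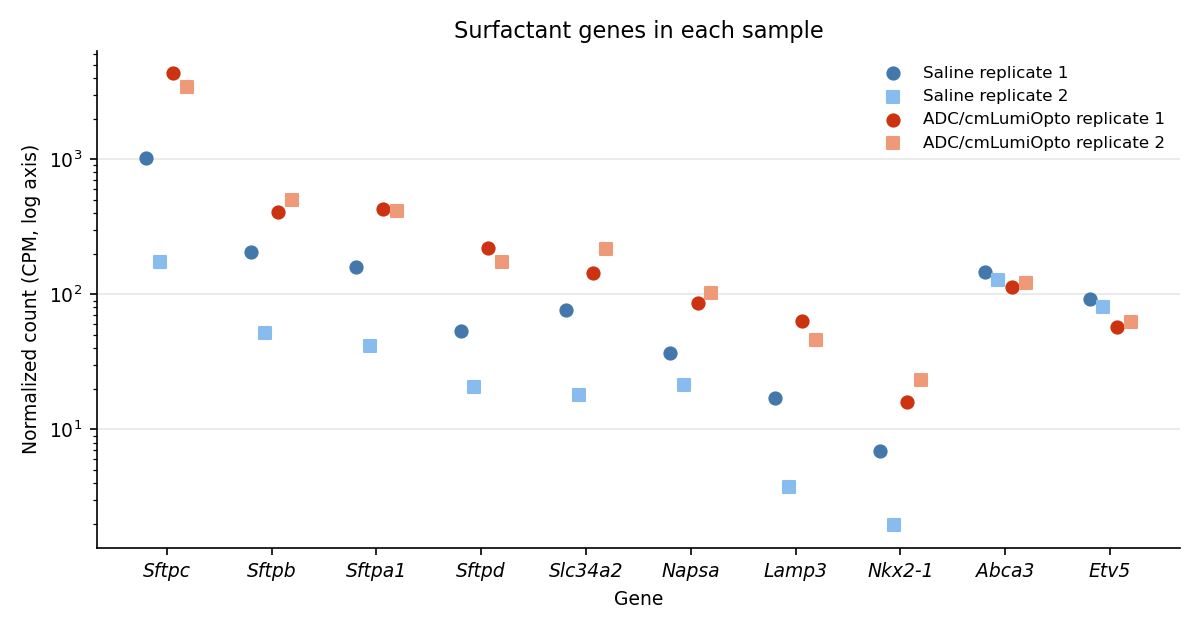
Normalized counts (CPM, log axis) of the 10 surfactant genes, 1 point for each of the 2 saline and 2 ADC/cmLumiOpto samples. For 8 genes the points run from saline replicate 2 through saline replicate 1 to both treated samples, whereas the 4 points of Abca3, between 113 and 146 CPM, and of Etv5, between 57.2 and 92.2 CPM, lie close together.

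The question of the comparison was how gene expression in metastasis-bearing lung differs after ADC/cmLumiOpto. The fit was edgeR's quasi-likelihood test over all 15320 genes with Benjamini-Hochberg adjustment, in which 0 genes (0%) had an adjusted p under 0.05 and 3553 an unadjusted p under 0.05. DESeq2 gave 1353 genes at an adjusted p under 0.05, with Napsa, Sftpd and Nkx2-1 among them, all higher, against 3.78% of the 15320 genes that DESeq2 called higher. An exact permutation test of 2 samples against 2 cannot give a two-sided p under 0.333 and was not used. At an unadjusted p under 0.05, 8 of the 10 surfactant genes were higher, against 11.0% of all tested genes that passed this threshold and were higher. Etv5 also passed this threshold and was lower, which held for 1863 of the 15320 tested genes. Abca3 did not pass it. The 8 genes that were higher at this threshold were also higher without overlap between the groups, as were 28.1% of all tested genes. The other 2 genes, Abca3 and Etv5, were lower without overlap, as were 28.8% of all tested genes. The median log2 fold change of the 10 genes was 1.99, beside 0.028 for all tested genes, of which 9.31% had a log2 fold change over 1. Because the list was chosen with earlier results of these data known, these comparisons describe it and do not test it.

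Among the hydrophobic surfactant proteins, Sftpc (ENSMUSG00000022097) was at 1017 and 174 CPM in saline replicates 1 and 2 and at 4321 and 3426 CPM in ADC/cmLumiOpto replicates 1 and 2. Both treated samples lay above both saline samples, and the saline samples differed by 5.84-fold. Its log2 fold change was 2.70 (standard error 0.74, adjusted p = 0.126 in edgeR's quasi-likelihood test), the largest of the 10 and number 124 among all tested genes. Sftpb (ENSMUSG00000056370) was at 206 and 51.8 CPM in the saline samples and at 405 and 499.6 CPM in the treated samples. The groups did not overlap, but ADC/cmLumiOpto replicate 1 was only 1.96-fold above saline replicate 1, while the saline samples were 3.98-fold apart. Its log2 fold change was 1.81 (standard error 0.57, adjusted p = 0.148 in edgeR).

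Among the collectins, Sftpa1 (ENSMUSG00000021789) was at 159.98 and 41.4 CPM in the saline samples and at 428 and 411 CPM in the treated samples. The treated samples were nearly alike, whereas the saline samples were 3.87-fold apart. The log2 fold change was 2.06 (standard error 0.56, adjusted p = 0.126 in edgeR). Sftpd (ENSMUSG00000021795), which airway secretory cells also make, was at 53.8 and 20.5 CPM in the saline samples and at 220.4 and 174 CPM in the treated samples. Both treated samples exceeded saline replicate 1, the higher control, by at least 3.22-fold. Its log2 fold change was 2.40 (standard error 0.44, adjusted p = 0.116 in edgeR).

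Of the genes for processing and phosphate uptake, Napsa (ENSMUSG00000002204) was at 36.8 and 21.5 CPM in the saline samples and at 86.4 and 101 CPM in the treated samples. It had the smallest difference between saline samples of the 8 genes that were higher, 1.71-fold, and the smallest unadjusted p of the 10, 6.33e-04 in edgeR's quasi-likelihood test. Its log2 fold change was 1.69 (standard error 0.28, adjusted p = 0.116 in edgeR). Slc34a2 (ENSMUSG00000029188) was at 76.6 and 18.1 CPM in the saline samples and at 145 and 215 CPM in the treated samples. The nearest samples of the groups were 1.89-fold apart, and the log2 fold change was 1.92 (standard error 0.61, adjusted p = 0.148 in edgeR).

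The 2 lamellar body membrane genes had log2 fold changes of opposite sign, and the difference between them was not tested. Lamp3 (ENSMUSG00000041247) was at 17.0 and 3.77 CPM in the saline samples and at 63.2 and 45.5 CPM in the treated samples. Its log2 fold change was 2.38 (standard error 0.61, adjusted p = 0.123 in edgeR). The treated samples lay at least 2.68-fold above the higher control. Abca3 (ENSMUSG00000024130) was at 146 and 128 CPM in the saline samples and at 113 and 121 CPM in the treated samples. The treated samples were lower than both controls, but the ratio of the group means, 0.855, was close in size to the 1.15-fold gap between the controls. Its log2 fold change was -0.23 (standard error 0.16, adjusted p = 0.438 in edgeR), and it was 0.013 once the trend with gene length was removed.

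The 2 transcription factor genes also had opposite signs. Nkx2-1 (ENSMUSG00000001496) was the lowest of the 10, with 111 and 29 counts in saline replicates 1 and 2, then 282 and 478 after treatment, or 6.94, 1.95, 16.0 and 23.3 CPM. Both treated samples were above both controls, and the log2 fold change was 2.14 (standard error 0.56, adjusted p = 0.123 in edgeR). Etv5 (ENSMUSG00000013089) was at 92.2 and 80.5 CPM in the saline samples and at 57.2 and 62.7 CPM in the treated samples. The groups did not overlap, and the log2 fold change was -0.53 (standard error 0.17, adjusted p = 0.149 in edgeR). This value lay between -0.62 and -0.44 under every alternative run.

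**Figure D2:**
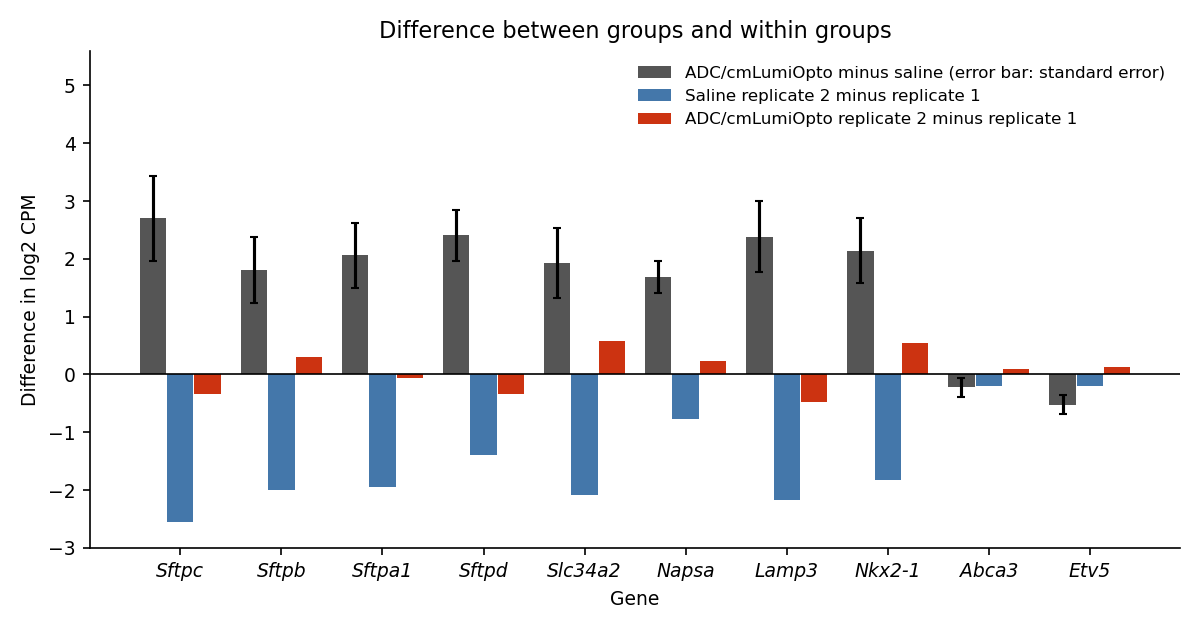
Differences in log2 CPM for each surfactant gene, with grey bars for ADC/cmLumiOpto minus saline (error bars, standard error of the fitted log2 fold change), blue bars for saline replicate 2 minus replicate 1, and red bars for ADC/cmLumiOpto replicate 2 minus replicate 1. The blue bars reach -2.54 for Sftpc and lie near 0 for Abca3 and Etv5, while all red bars lie between -0.47 and 0.57.

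On the log2 scale, most of the replicate spread came from the controls, which was not so for every gene in CPM. All 10 genes were lower in saline replicate 2 than in saline replicate 1, with a median log2 difference of -1.89, beside -0.0047 for all tested genes. Every surfactant gene except Napsa, Abca3 and Etv5 was at least 2-fold lower there, as were 7.17% of all tested genes. For Sftpc only 0.679% of the tested genes had a lower value of this difference, and for Lamp3 only 1.28%. Abca3 and Etv5 were each 1.15-fold apart between the saline samples. Between the treated samples, Lamp3, Sftpd, Sftpc and Sftpa1 were higher in replicate 1 and the other 6 in replicate 2, and the largest difference was 0.57 on the log2 scale, for Slc34a2.

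With each sample left out in turn, the direction of all 10 genes held, which the lack of overlap between the groups largely fixed beforehand. Without saline replicate 1 the median log2 fold change of the 10 genes was 3.27, and 8 of them were higher with an adjusted p under 0.05 in edgeR's quasi-likelihood test, against 1.01% of the 16296 genes tested in that fit. Without saline replicate 2 the median was 1.37 and 0 of the 10 passed. Sftpc ranged from 1.93 to 4.46 and Sftpb from 1.14 to 3.11 on the log2 scale, in both cases lowest without saline replicate 2 and highest without saline replicate 1. With 1 sample left in a group, the fit assumes that it varies like the samples of the other group.

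**Figure D3:**
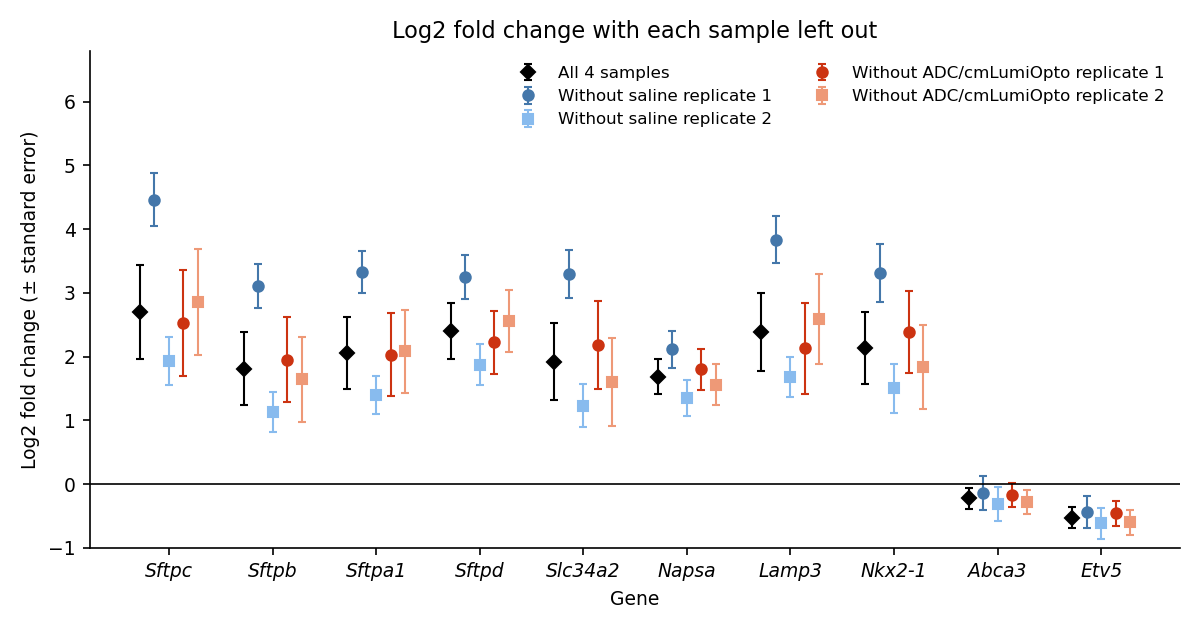
Log2 fold change (± standard error from edgeR's quasi-likelihood fit) of each surfactant gene with all 4 samples and with each sample left out. Leaving out saline replicate 1 gives the highest value for the 8 genes that were higher and leaving out saline replicate 2 the lowest. Abca3 and Etv5 remain below 0 in each case. The signs were largely fixed beforehand because the groups do not overlap for any of these genes.

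Other genes characteristic of alveolar type 2 cells had the same direction. Of 18 such genes, 16 were higher and 2 lower, with a median log2 fold change of 1.65, and 15 were higher without overlap. The most abundant, the lysozyme gene Lyz2, which macrophages and neutrophils also make, was at 1687 and 1128 CPM in the saline samples and at 4299 and 2447 CPM in the treated samples (log2 fold change 1.26, adjusted p = 0.123 in edgeR). Cbr2, a carbonyl reductase of lung epithelium, was at 179 and 24.9 CPM in the saline samples and at 629.9 and 561 CPM in the treated samples. Ctsh, a cathepsin that also trims the SP-B precursor, was higher by 0.99 on the log2 scale (standard error 0.24, adjusted p = 0.123 in edgeR), and Sdc4, a syndecan made by many cells, was at -0.40 on that scale (adjusted p = 0.289 in edgeR). None of these 18 genes had an adjusted p under 0.05, and neither did any other tested gene.

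Genes that act with the surfactant genes but are widely expressed were divided in direction. Of 23 tested genes of lipid synthesis, 13 were higher and 10 lower, with a median log2 fold change of 0.15. The most abundant ones were lower in both treated samples. The fatty acid synthase gene Fasn was at 631 and 527 CPM in the saline samples and at 261 and 312 CPM in the treated samples. For Fasn the log2 fold change was -1.01 (standard error 0.18, adjusted p = 0.116 in edgeR). The desaturase gene Scd2 had a log2 fold change of -0.89, the citrate lyase gene Acly of -0.76 and the acyl-CoA ligase gene Acsl4 of -0.35. Lpcat1, the acyltransferase that makes the dipalmitoyl lipid of surfactant and is also in the type 2 list, was higher, at 100.02 and 76.9 CPM with saline, then 147 and 125 CPM with treatment. Lpcat1 lay outside the rule for naming genes and was chosen after its values were seen.

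Of 12 other transcription factor genes of type 2 cells, 6 were higher and 6 lower, with a median of 0.11. The 4 most abundant, Stat3, Nfib, Foxp1 and Klf5, which many epithelia use, had log2 fold changes between -0.74 and -0.50. Of 16 genes for trafficking and processing, 7 were higher and 9 lower, with a median of -0.11, and Nedd4, a ubiquitin ligase that sorts the SP-C precursor, went from 1020 and 1201 CPM to 615 and 619.9 CPM (log2 fold change -0.85, adjusted p = 0.116 in edgeR). Of 11 genes for clearance and control of the surfactant pool, 7 were higher and 4 lower, with a median of 0.087. Adgrf5, a receptor that restrains surfactant secretion, was at 116 and 113 CPM in the saline samples and at 124 and 211 CPM in the treated samples.

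Markers of club, ciliated, alveolar type 1 and endothelial cells had mostly the same direction as the surfactant genes. The airway lists had the largest medians of the lists examined, with all 8 club cell markers and all 8 ciliated cell markers higher without overlap and median log2 fold changes of 3.47 and 3.13. The club cell secretoglobin Scgb1a1 was at 1085 and 73.9 CPM in the saline samples and at 5819 and 2781 CPM in the treated samples. Of 12 alveolar type 1 markers 11 were higher, with a median of 1.15, and the type 1 cell receptor gene Ager was at 136 and 47.0 CPM in the saline samples and at 422 and 379 CPM in the treated samples. Of 10 lung endothelial markers 9 were higher, with a median of 0.94. The summed level of the type 1 list was 564 and 287 CPM in the saline samples and 1143 and 1158 CPM in the treated samples, and that of the club cell list 1184 and 98.1 CPM against 6347 and 3058 CPM. The ciliated list summed to 12.6 and 5.73 CPM against 68.5 and 44.0 CPM, with Sntn, named after its values were seen, and Cdhr3 at 0 counts in saline replicate 2, and the endothelial list to 500.1 and 394 CPM against 554 and 809 CPM. In each of these 4 lists saline replicate 2 had the lowest sum, as it did for the surfactant genes. The part of lung cell content in the values of the surfactant genes was not tested.

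Carcinoma and proliferation markers did not show this pattern. The 11 epithelial markers of 4T1 summed to 3643 and 4045 CPM in the saline samples and to 3569 and 3346 CPM in the treated samples. Of these markers 5 were higher and 6 lower, with log2 fold changes from -0.62 to 2.02 and a median of -0.051. They are epithelial genes, and the parts of carcinoma and of lung epithelium in their values were not tested. All 8 proliferation markers were lower, with a median of -0.61, and their sums were 1259 and 1243 CPM against 821 and 739 CPM. Of 8 fibroblast markers 7 were lower, with a median of -0.69 and sums of 5578 and 4198 CPM against 2192 and 1889 CPM.

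Immune cell lists were also mostly higher by their medians. Of 10 tested leukocyte markers 9 were higher, with a median log2 fold change of 1.05, and 9 were lower in saline replicate 2 than in saline replicate 1, with a median log2 difference of -1.34. Their sum in ADC/cmLumiOpto replicate 2, 7469 CPM, stood above the 732 to 1494 CPM of the other samples, mostly through S100a9 at 3814.5 CPM and S100a8 at 3089 CPM. For Lamp3, the 10 mature dendritic cell markers bear on the second cell type that makes it. They summed to 611 and 601 CPM in the saline samples and to 410 and 440 CPM in the treated samples, largely from Fscn1, which tumor cells also make, and 6 of the 9 tested were higher, with a median log2 fold change of 0.81. Alveolar macrophage markers, which report on the cells that clear surfactant, summed to 404 and 868 CPM in the saline samples and to 302 and 441 CPM in the treated samples, most of it from Mrc1 and Chil3. Both of these were lower on average, whereas 6 of the 9 tested were higher and the median log2 fold change was 0.65. The part of immune cell content in the values of the surfactant genes was not tested either. Mesothelial markers were 4 higher and 2 lower, with sums of 153 and 245 CPM against 229 and 161 CPM, and Esr1, a hormone receptor gene, was between 11.2 and 19.6 CPM.

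**Figure D4:**
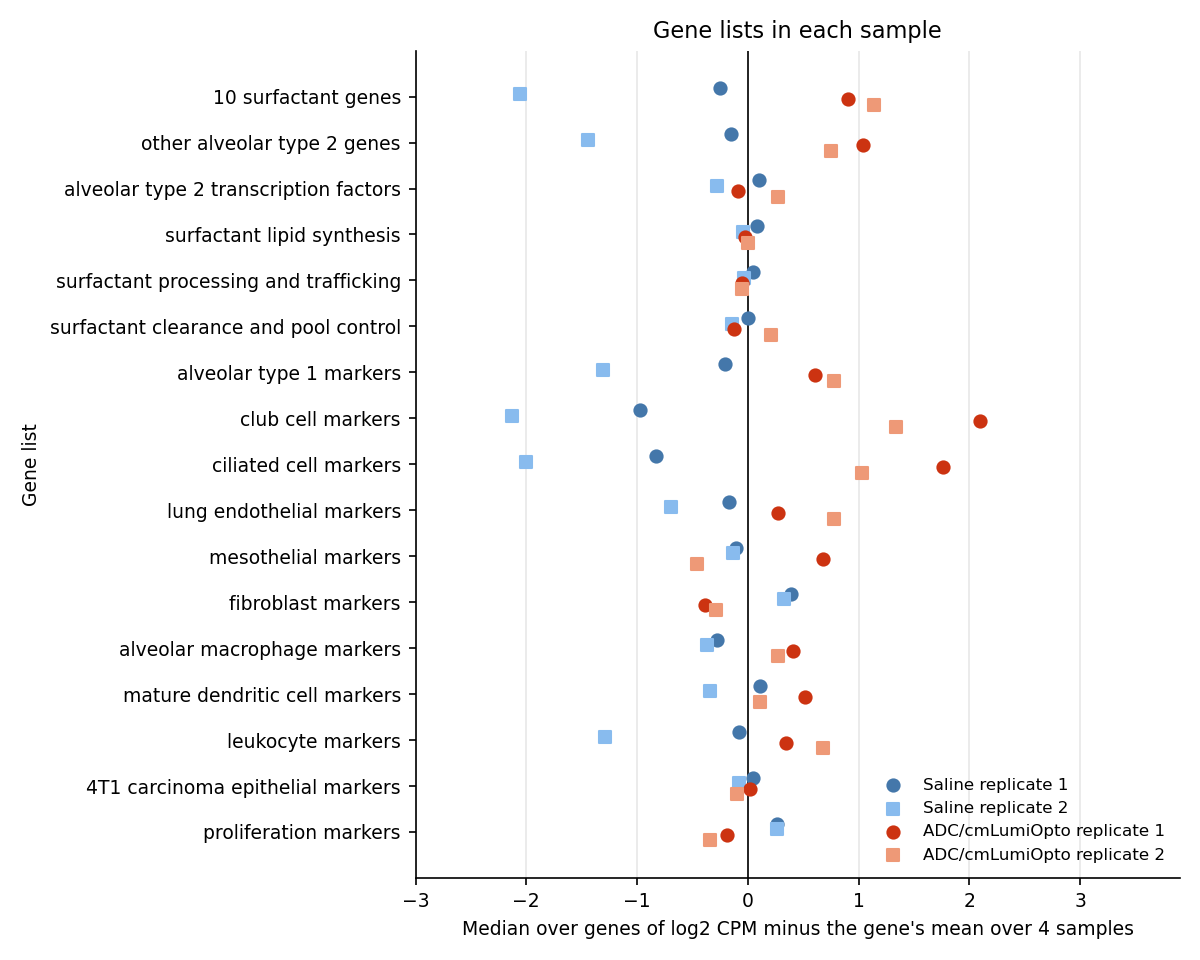
Median, over the tested genes of each list, of log2 CPM minus the gene's mean over the 4 samples, with 1 point for each sample. Saline replicate 2 is lowest and both treated samples are highest for the surfactant, other type 2, type 1, club, ciliated, endothelial, leukocyte, alveolar macrophage and mature dendritic cell lists (by very little for the last, 0.111 in saline replicate 1 and 0.114 in ADC/cmLumiOpto replicate 2), whereas the lipid synthesis, processing and 4T1 lists stay within 0.10 of 0.

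The genes whose profile over the 4 samples was most like that of Sftpc were compared by the root mean square difference of log2 CPM, each gene centred on its own mean. The nearest among the tested genes outside the 10 were Cbr2 (0.122), the carboxylesterase gene Ces1d (0.126), Cdhr3 (0.172), Fam183b (0.178) and Gm19935 (0.181). Ces1d was at 24.2 and 3.77 CPM in the saline samples and at 104 and 96.8 CPM in the treated samples. Cdhr3, Fam183b and Gm19935 had 0 counts in saline replicate 2 and between 8 and 61 counts in the other samples. Their log2 CPM in saline replicate 2, and so their likeness to Sftpc, depends on the prior count of 2 used there. Of the other surfactant genes, Lamp3 was the nearest to Sftpc, ranking 11 of 15319 genes, followed by Sftpa1 at 43 and Sftpd at 60. Nkx2-1, Slc34a2 and Sftpb ranked 102, 106 and 118, Napsa 431, Abca3 9302 and Etv5 12182. The likeness rests on 4 samples and is a description with no test.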

How the data were processed

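Bulk mRNA from 2 saline and 2 ADC/cmLumiOpto mouse lung samples was sequenced on an Illumina platform. Unnormalized gene-level read counts for 56748 genes were deposited by the authors. The methods state HISAT2 alignment to GRCm38, and the submitters' processing notes list mm39. The counting program and its strand setting are not given in the sources used here. Samples were grouped by their titles, and the columns were matched by library name. The same-numbered samples of the 2 groups share only a number.

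edgeR 4.0.16 under R 4.3.3 was used throughout. filterByExpr selected the genes tested (minimum count 10, minimum total 15), which were normalized by TMM and compared by glmQLFit and glmQLFTest with Benjamini-Hochberg adjustment over 15320 genes and a threshold of 0.05. The standard error is the log2 fold change divided by the square root of F, in absolute value. The prior count was 0.125 for log2 fold changes, and 2 for the log2 CPM of the list medians and of the likeness to Sftpc. Depth was 15263375 to 19675436 counts per sample. TPM were computed from the listed gene lengths. Alternatives were DESeq2 1.42.0, other normalizations, the edgeR exact test, other filters, a replicate block, removal of a trend with gene length (lowess span 0.3), and each sample left out.

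The genes and lists were chosen with earlier results of these data known. Named genes are the 10 surfactant genes, the 4 of highest mean CPM in a list, and the 5 nearest to Sftpc; Lpcat1 and Sntn are named beyond this rule. The procedure was also run on simulated counts with the same replicate spread for every gene. That setting does not show how the tests perform at the spread of these samples.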

Additional observations from a re-analysis of the deposited data

How the results depend on the processing

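The median log2 fold change of the 10 surfactant genes, 1.99, was between 1.97 and 2.26 under the 8 alternatives that kept all samples, and between 1.37 and 3.27 with a sample left out. The number of surfactant genes with an adjusted p under 0.05 was 0 in edgeR's quasi-likelihood test, 3 in DESeq2, 8 in the edgeR exact test, 8 without a filter beyond 1 count in total, and between 0 and 8 with a sample left out. Over all tested genes these counts were 0, 1353, 1170 and 2259, and between 0 and 218 with a sample left out. Every surfactant gene called was higher, whereas the totals over all genes hold both directions. DESeq2 called 579 of 15320 genes higher, the exact test 606 of 15320, and the fit without the filter 1224 of 25563. At an unadjusted p under 0.05 the quasi-likelihood test gave 3553 genes. The replicate block gave 7 surfactant genes and 607 genes in all, of which 308 were higher. However, the replicate numbers share no stated animal or batch. Deviations of same-numbered samples had a correlation of 0.0985 over genes, so the block describes no pairing of mice. Library size without TMM, upper-quartile normalization, at least 10 counts in every sample and the gene-length correction called 0 genes. The only change of sign for a surfactant gene was Abca3, from -0.23 to 0.013 with the trend on gene length removed (across genes, which do not vary independently, log2 fold change and length had a Spearman's rho of -0.34). The cause of these differences was not tested. With 2 samples per group, counting error and replicate spread were not separated gene by gene, and the lowest count of a surfactant gene was 29, for Nkx2-1 in saline replicate 2.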
